A study of Mus musculus with 14 samples.

Results

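The 33 genes described here drive DNA replication and cell division: 14 act in S phase, when DNA is copied, and 19 act in mitosis, when the copies are separated. They are a named list, matched by gene symbol to the authors' loci, and each symbol on several loci was taken at the locus with the highest FPKM. All 33 were found among 67811 loci, and all 33 were among the 18217 loci abundant enough to test. Of these, 8 shared their locus with a further gene name, so that their fragments cannot be told apart from those of the other gene: Mcm6 with Dars, Mcm7 with Mir25 and Mir93, Pcna with Tmem230, E2f1 with Necab3, Ccna2 with Bbs7, Ccnb1 with Cenph, Ccnb2 with Rnf111 and Top2a with Gm23451. Ccne2, Kif11 and Tyms were each named on more than 1 locus.

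RNA came from whole heads, brain included, of C57BL/6J mouse embryos at E12.5, with no treatment. The groups were 6 libraries of Zcchc8-/- heads (KO1 to KO6), 3 of Zcchc8+/- heads (HET3 to HET5) and 5 of Zcchc8+/+ heads (WT1 to WT5). The labels say neither which bases of Zcchc8 are altered nor whether each library is 1 embryo, so p-values measure the spread between these libraries, which may be partly technical. ZCCHC8 holds together the NEXT complex, an adaptor that feeds short-lived RNA of the nucleus into the exosome for degradation. Libraries were made from polyadenylated RNA, and levels are FPKM, fragments scaled to transcript length and to the library's total.

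In a dividing cell the genes of S phase and those of mitosis are transcribed in successive waves. E2F factors switch on the helicase, clamp and nucleotide supply genes before replication, and the MuvB complexes with B-MYB and FOXM1 switch on the cyclins, kinases and spindle genes that follow. Replication-dependent histone genes are transcribed in S phase, and their messages, unlike most, carry a stem-loop at the 3′ end in place of a poly(A) tail. In the embryonic head at this age the neural progenitors along the ventricles are a main dividing population. The question addressed with the list was whether the histone RNA captured in these libraries, which is higher in KO heads, goes along with RNA of other S-phase genes.

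As a check of the labels, Zcchc8 was read first (chromosome 5, 123698294 to 123721100, mm10). It had 15.5 ± 3.91 FPKM in KO (SD, n = 6), 25.7 ± 1.64 FPKM in HET (SD, n = 3) and 39.7 ± 2.32 FPKM in WT heads (SD, n = 5), and no KO library reached a HET or WT library. The log2 difference between KO and WT was -1.39 (SE 0.15, limma-trend, Benjamini-Hochberg adjusted p = 2.1e-06). Total depth is unknown, because the files hold no counts. Depth relative to WT1 was 1.15 to 1.49 in KO, 1.23 to 1.32 in HET and 1.0 to 1.20 in WT libraries.

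KO heads differed little from WT heads in the cell cycle genes. At an adjusted p under 0.05, 5 of 33 were higher in KO, namely Cenpf, Mki67, Top2a, Rrm2 and Ccnb1, and 0 were lower. That is 15.2% of the list, against 19.0% of all tested loci called higher and 5.61% called lower. Most loci called higher were of low abundance, and among the 7691 loci at least as abundant as the lowest member the shares were 3.38% higher and 6.14% lower. The median log2 difference was 0.10 over the 33 members (1.07-fold), -0.00 over all tested loci and -0.03 over the 7691 abundant loci. The members lay between -0.15 for Tyms and 0.31 for Cenpf. Of the 33, 29 were positive, against 9032 of the 18217 tested loci. An unadjusted p under 0.05 (limma-trend) was found for 10 of the 33 and for 6276 of the 18217. For none of the 33 were all KO libraries above, or all below, all WT libraries, while 15.3% of tested loci were entirely above and 1.99% entirely below. These last comparisons, of sign, unadjusted p and separation, use all tested loci and were not made for the abundant loci alone. In bulk RNA a different share of dividing cells and a different amount of RNA per cell cannot be told apart.

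The 5 calls lay close to the threshold and depended on the fit. Among 25 alternative settings, Mki67 was called in 19, Cenpf in 13, Ccnb1 in 8, Top2a in 7 and Rrm2 in 6, and in none did any of these differences change sign. With libraries scaled to a common median, 0 members were called higher. With the authors' own log2 matrix as input, 26 were called higher, and the median log2 difference over the loci tested there was itself 0.20. Leaving out 1 library gave between 0 calls (without WT3, or without KO2) and 8 (without KO5).

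**Figure D1:**
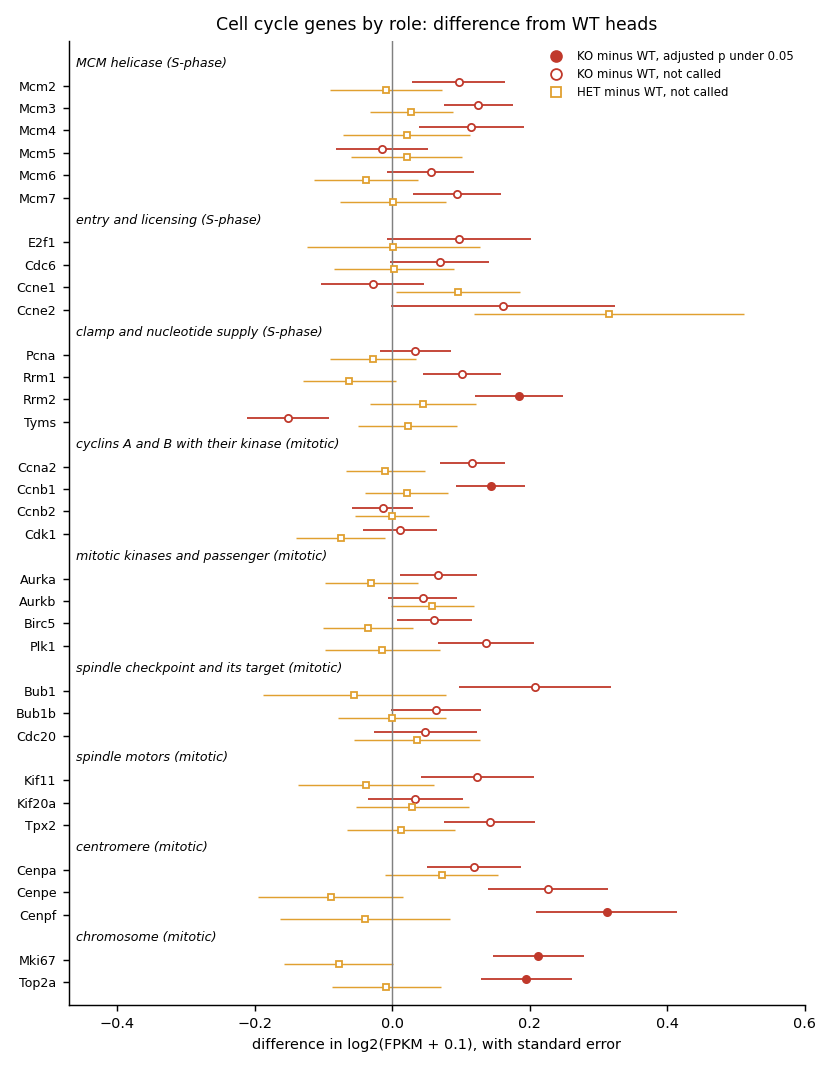
Difference in log2(FPKM + 0.1) from WT heads for the 33 genes, grouped by role. Red circles are KO minus WT (filled where the adjusted p is under 0.05), orange squares are HET minus WT, and bars are standard errors. The KO differences lie between -0.15 and 0.31 with 29 of 33 right of 0, and none of the HET differences is called.

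Of the 14 S-phase genes, 1 was higher in KO than in WT (7.14%) and 0 were lower, with a median log2 difference of 0.10. All tested loci were called higher at 19.0%, and the abundant loci at 3.38%. The 6 MCM genes encode the subunits of the ring helicase that unwinds DNA at replication forks, and none was called. Mcm6, the most abundant of them, had a lowest value of 129.6, a median of 149.2 and a highest value of 165.0 FPKM in KO libraries, 133.8, 139.8 and 142.2 FPKM in HET, and 132.7, 147.2, 134.3, 142.9 and 155.5 FPKM in WT. The 3 groups overlapped, with KO5 below every WT library. The difference between KO and WT was 0.06 (SE 0.06, limma-trend, adjusted p = 0.591). Mcm3 had the largest difference of the complex, 0.13 (SE 0.05, limma-trend, adjusted p = 0.0858), and Mcm5 was at -0.02. Summed over the complex, FPKM was 532.3 ± 37.8 in KO, 503.1 ± 21.8 in HET and 504.3 ± 22.2 in WT (SD, n = 6, 3 and 5).

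Entry into S phase rests on E2f1, a transcription factor that activates replication genes, on Cdc6, which loads the helicase on origins, and on Ccne1 and Ccne2, the E-type cyclins. None of these 4 genes was called. E2f1 had 15.1 FPKM in KO3 and 22.8 to 24.5 FPKM in the other KO libraries, 19.7, 19.9 and 21.8 FPKM in HET, and 22.0, 19.8, 21.4, 20.5 and 18.6 FPKM in WT. Apart from KO3, every KO library was above every HET and WT library. With all 6 KO libraries in the fit, KO and WT differed by 0.10 log2 (SE 0.10, limma-trend, adjusted p = 0.569). Without KO3 they differed by 0.20 log2 (limma-trend, adjusted p = 0.00687). That was the only call of E2f1 among 14 fits that each left out 1 library. It rests on leaving out the library that went against the difference. Ccne1 differed by -0.03 and Cdc6 by 0.07 (log2, adjusted p of 0.835 and 0.555, limma-trend). Ccne2 had the widest spread of the list, from 6.80 to 13.4 FPKM in KO, 9.38 to 14.1 FPKM in HET and 7.58 to 10.3 FPKM in WT.

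Replication also needs the sliding clamp Pcna, which holds DNA polymerases on the template, and deoxynucleotides. Pcna, the most abundant S-phase member, had a lowest value of 189.6, a median of 211.7 and a highest value of 226.3 FPKM in KO libraries, 192.5, 210.2 and 204.8 FPKM in HET, and 196.4, 207.1, 196.2, 206.7 and 226.4 FPKM in WT. The groups overlapped throughout, and the log2 difference between KO and WT was 0.03 (SE 0.05, limma-trend, adjusted p = 0.707). Rrm2 encodes the small subunit of ribonucleotide reductase, which makes deoxynucleotides and is limiting in S phase. It had 136.0, 135.4, 133.6, 140.5, 108.5 and 124.0 FPKM in KO1 to KO6, 110.4, 117.8 and 124.0 FPKM in HET, and 108.5, 110.1, 114.7, 111.6 and 124.3 FPKM in WT. KO1 to KO4 were above every HET and WT library, while KO5 was level with the lowest WT library. The log2 difference was 0.18 (SE 0.06, limma-trend, adjusted p = 0.0477).

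Rrm1, the large subunit of the same enzyme, differed by 0.10 between KO and WT (SE 0.06, limma-trend, adjusted p = 0.225). Tyms, the thymidylate synthase, went the other way. Its KO libraries had a lowest value of 63.4, a median of 71.5 and a highest value of 75.9 FPKM, HET libraries had 74.0, 85.8 and 78.1 FPKM, and WT libraries had 73.1, 78.0, 75.4, 81.7 and 81.8 FPKM. All 6 KO libraries lay below the WT mean of 78.0 FPKM, but 2 of them lay above WT1 and WT3. The difference of -0.15 (SE 0.06) did not pass the test (limma-trend, adjusted p = 0.0830).

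Of the 19 mitotic genes, 4 were higher in KO than in WT (21.1%) and 0 were lower, with a median log2 difference of 0.12. That share is near the 19.0% of all tested loci called higher, and above the 3.38% of the abundant loci. Ccna2, Ccnb1 and Ccnb2 encode the cyclins that activate Cdk1, the kinase that starts mitosis. The locus of Ccnb1 (chromosome 13, 100759674 to 100786570, with Cenph) had 86.6, 88.4, 95.2, 93.5, 82.7 and 84.7 FPKM in KO1 to KO6, 74.0, 82.9 and 87.3 FPKM in HET, and 79.9, 78.4, 80.3, 77.8 and 84.0 FPKM in WT. All KO libraries but KO5 were above all WT libraries, while HET5 was higher than 3 of the KO libraries. The log2 difference between KO and WT was 0.14 (SE 0.05, limma-trend, adjusted p = 0.0499). Cdk1 itself, at 137.4 ± 8.49 FPKM in KO (SD, n = 6) and 136.4 ± 9.51 FPKM in WT (SD, n = 5), differed by 0.01 (SE 0.05, limma-trend, adjusted p = 0.912). Ccna2 was at 0.12 (adjusted p = 0.0954, limma-trend) and Ccnb2 at -0.01 (adjusted p = 0.865, limma-trend).

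No member was called among the mitotic kinases and their partner or in the spindle checkpoint. Aurka, Aurkb and Plk1 encode kinases that build and correct the spindle, and Birc5 encodes survivin, which places Aurora B on the chromosomes. Birc5, the most abundant of the 4, had a lowest value of 83.1, a median of 91.8 and a highest value of 99.2 FPKM in KO, 81.9, 85.5 and 89.6 FPKM in HET, and 82.1, 85.7, 83.8, 94.2 and 93.7 FPKM in WT. The groups overlapped, and KO differed from WT by 0.06 log2 (SE 0.05, limma-trend, adjusted p = 0.474). Plk1 had the largest difference of these 4 at 0.14 (adjusted p = 0.185, limma-trend). Bub1 and Bub1b hold back the anaphase trigger Cdc20 until all chromosomes are attached. Cdc20 had 62.7 FPKM in KO3 and 76.4 to 87.7 FPKM in the other KO libraries, 72.0, 80.3 and 82.8 FPKM in HET, and 77.0, 71.4, 75.8, 81.9 and 75.6 FPKM in WT. KO3 was the lowest of the 14 libraries for Cdc20, while for Bub1 it was the highest, at 41.0 FPKM, against 23.2 to 33.9 FPKM in the other KO libraries and 23.5 to 28.6 FPKM in WT. The log2 difference of KO from WT was 0.05 for Cdc20 (adjusted p = 0.709, limma-trend), 0.06 for Bub1b (adjusted p = 0.551) and 0.21 for Bub1 (SE 0.11, adjusted p = 0.205).

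The spindle motor genes Kif11 and Kif20a and the spindle assembly factor Tpx2 were not called. Tpx2 had a lowest value of 50.5, a median of 61.5 and a highest value of 66.8 FPKM in KO, 51.3, 55.2 and 56.4 FPKM in HET, and 54.2, 54.0, 52.5, 52.2 and 56.1 FPKM in WT. KO1 to KO4 lay above all HET and WT libraries, and KO5 below all of them. KO differed from WT by 0.14 log2 for Tpx2 (SE 0.07, limma-trend, adjusted p = 0.141), the difference of Kif11 was 0.12 (adjusted p = 0.323) and the difference of Kif20a was 0.03 (adjusted p = 0.782).

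The largest 3 differences of the list were those of Cenpf, Cenpe and Mki67, genes of the centromere and the mitotic chromosome. Cenpf (chromosome 1, 189640606 to 189688086) encodes a large kinetochore protein. It had 18.1, 19.3, 19.7, 17.1, 23.8 and 14.7 FPKM in KO1 to KO6, 13.6, 13.3 and 16.9 FPKM in HET, and 15.3, 16.2, 13.4, 14.7 and 15.3 FPKM in WT. KO1 to KO5 were above every HET and WT library, and KO6 was within the WT range. KO heads averaged 125.4% of the WT level, with a log2 difference of 0.31 (SE 0.10, limma-trend, adjusted p = 0.0379), and the difference from HET was 0.35 (SE 0.12, adjusted p = 0.0489).

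Cenpe (chromosome 3, 135212537 to 135273611), a kinesin that captures microtubules at the kinetochore, had 16.0, 18.0, 21.0, 17.1, 19.7 and 14.7 FPKM in KO1 to KO6, 13.7, 13.2 and 15.7 FPKM in HET, and 15.6, 15.3, 14.1, 13.9 and 16.6 FPKM in WT. It passed the test against HET (log2 difference 0.32, SE 0.10, limma-trend, adjusted p = 0.0370) but not against WT (0.23, SE 0.09, adjusted p = 0.0767). KO6 and KO1 were the KO libraries that overlapped the WT range. Cenpa, the centromeric histone H3 variant, whose message is polyadenylated, had 93.8 ± 8.98 FPKM in KO (SD, n = 6), 90.7 ± 9.11 FPKM in HET (SD, n = 3) and 86.1 ± 3.50 FPKM in WT (SD, n = 5), and was not called (0.12, adjusted p = 0.241, limma-trend).

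Mki67 (chromosome 7, 135689784 to 135716361) encodes the proliferation marker Ki-67, which coats mitotic chromosomes. It had 46.6, 51.3, 51.9, 46.3, 47.9 and 39.5 FPKM in KO1 to KO6, 39.9, 36.4 and 39.2 FPKM in HET, and 41.5, 41.1, 39.9, 37.2 and 43.7 FPKM in WT. Again KO1 to KO5 were above every HET and WT library and KO6 was within both ranges. KO differed from WT by 0.21 log2 (SE 0.07, limma-trend, adjusted p = 0.0277) and from HET by 0.29 log2 (SE 0.08, adjusted p = 0.0119). Top2a (locus on chromosome 11, 98992943 to 99024189, with Gm23451), the DNA topoisomerase that disentangles sister chromatids, had 160.3, 163.3, 165.9, 147.7, 165.9 and 126.8 FPKM in KO1 to KO6, 128.8, 133.9 and 139.6 FPKM in HET, and 128.5, 137.6, 126.7, 141.7 and 139.9 FPKM in WT. The order of libraries was alike, with KO6 at the low end of the WT range and the other 5 KO libraries above all WT and HET libraries. KO exceeded WT by 0.19 log2 (SE 0.07, limma-trend, adjusted p = 0.0430).

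**Figure D2:**
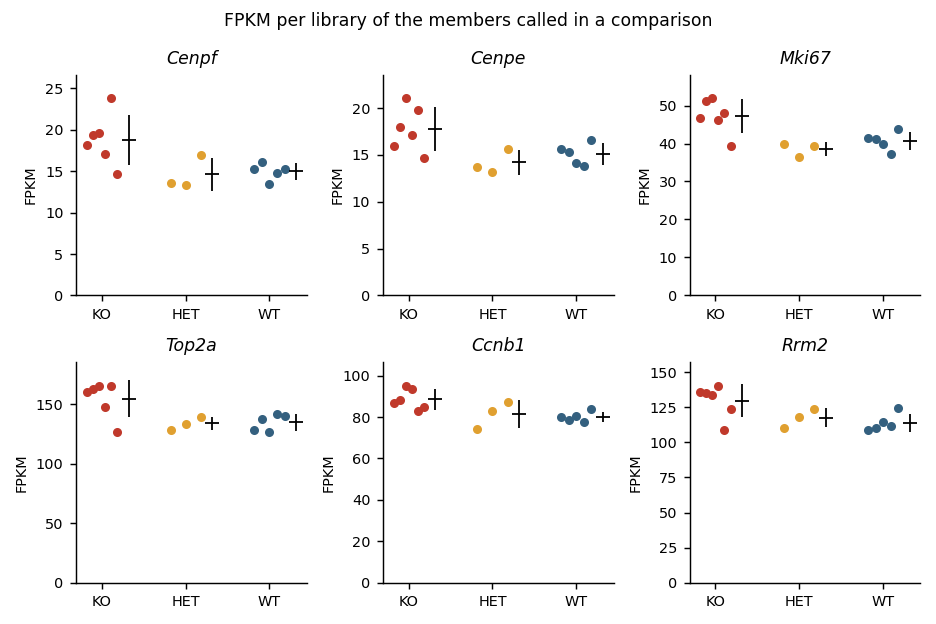
FPKM in each library (points) of the 6 cell cycle genes called in KO against WT or in KO against HET, for KO (n = 6), HET (n = 3) and WT (n = 5), with the mean and SD as black bars. For Cenpf, Mki67 and Top2a, 5 KO libraries lie above all WT libraries and KO6, the rightmost KO point, lies within the WT range.

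These genes differ in transcript length, and the longest 4 messages of the list all stood among the 5 largest differences, beside Bub1. With a division at 5000 bases, chosen after the values were seen, Cenpf, Mki67, Cenpe and Top2a had a median log2 difference of 0.22, and the other 29 members one of 0.09. Over 11546 single-name protein-coding loci the corresponding medians were -0.03 and -0.04. The rank correlation between length and the KO minus WT difference was 0.38 across the 33 members and -0.02 across the coding loci (Spearman's rho, across genes of the same libraries, which are not independent). Within single libraries, length and the level relative to the WT mean had a rho across members. It ran from -0.58 (KO6) to 0.58 (KO3) in KO, from -0.53 (HET4) to -0.19 (HET3) in HET and from -0.51 (WT3) to 0.55 (WT2) in WT libraries. KO and WT libraries thus held rhos of at least 0.38 in size in both directions, while every HET rho was negative. Across coding loci the rho ran from -0.25 (KO5) to 0.19 (KO2) in KO, from -0.19 to 0.03 in HET and from -0.44 (WT4) to 0.15 (WT5) in WT libraries. The part that length-dependent differences between libraries have in the values of these 4 genes was not tested.

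**Figure D3:**
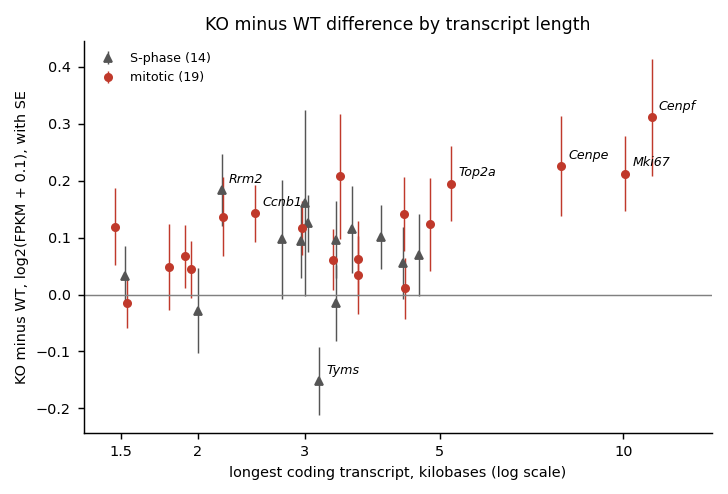
KO minus WT difference in log2(FPKM + 0.1) of the 33 genes against the length of their longest coding transcript in kilobases (log scale), with standard errors. Triangles are the 14 S-phase genes and circles the 19 mitotic genes. The 4 members over 5 kilobases have a median of 0.22, and Tyms is the lowest point.

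The promoters of the 5 genes called in KO against WT are shown to let the elements known to time S-phase and mitotic transcription be read in them. Each runs from 250 bases before to 50 bases after the annotated start (RefSeq, GRCm38.p6, printed 5′ to 3′ in the direction of the gene). Capitals mark E2F sites, which were searched as TTCCCGC and as TTGGCGC and also as TTCGCGC, and cell cycle homology regions (CHR), which were searched as TTTGAA and also as TTCGAA, on both strands. The E2F site of Ccnb1 overlaps a CCAAT box on the same letters.
Cenpf chr1:189688037-189688336, minus strand: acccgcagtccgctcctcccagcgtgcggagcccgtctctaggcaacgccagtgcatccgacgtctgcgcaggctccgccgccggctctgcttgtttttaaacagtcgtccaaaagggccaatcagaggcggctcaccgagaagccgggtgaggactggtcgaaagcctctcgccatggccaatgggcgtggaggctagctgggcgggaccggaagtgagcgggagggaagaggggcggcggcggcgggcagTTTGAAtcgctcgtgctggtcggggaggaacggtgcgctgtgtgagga
Top2a chr11:99024140-99024439, minus strand: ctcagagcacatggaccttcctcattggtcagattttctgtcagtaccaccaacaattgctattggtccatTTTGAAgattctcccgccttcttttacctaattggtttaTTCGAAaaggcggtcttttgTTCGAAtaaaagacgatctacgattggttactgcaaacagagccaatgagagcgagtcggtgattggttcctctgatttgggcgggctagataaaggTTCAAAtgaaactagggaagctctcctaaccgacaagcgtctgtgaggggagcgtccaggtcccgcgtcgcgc
Mki67 chr7:135716330-135716629, minus strand: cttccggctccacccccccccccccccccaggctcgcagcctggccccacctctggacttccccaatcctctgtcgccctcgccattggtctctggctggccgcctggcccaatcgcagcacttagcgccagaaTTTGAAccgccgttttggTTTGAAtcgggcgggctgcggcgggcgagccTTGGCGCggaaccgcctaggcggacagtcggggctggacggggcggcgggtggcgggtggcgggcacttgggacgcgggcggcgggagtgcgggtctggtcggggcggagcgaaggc
Ccnb1 chr13:100786437-100786736, minus strand: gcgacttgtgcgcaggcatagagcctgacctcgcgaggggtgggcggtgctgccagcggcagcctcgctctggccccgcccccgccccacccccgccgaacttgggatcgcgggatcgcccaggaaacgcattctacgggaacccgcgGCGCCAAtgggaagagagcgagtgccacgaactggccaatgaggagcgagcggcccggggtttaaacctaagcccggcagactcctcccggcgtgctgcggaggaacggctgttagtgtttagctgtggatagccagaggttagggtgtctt
Rrm2 chr12:24708004-24708303, plus strand: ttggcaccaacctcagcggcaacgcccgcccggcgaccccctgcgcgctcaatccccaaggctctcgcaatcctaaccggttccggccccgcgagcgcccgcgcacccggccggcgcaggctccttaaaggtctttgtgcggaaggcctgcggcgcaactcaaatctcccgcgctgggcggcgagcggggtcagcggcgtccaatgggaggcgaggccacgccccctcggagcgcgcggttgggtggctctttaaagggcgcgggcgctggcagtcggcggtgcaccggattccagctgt

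Cenpf held 1 CHR, Top2a held 4 CHR, Mki67 held 1 E2F site and 2 CHR, Ccnb1 held 1 E2F site, and Rrm2 held neither. Promoters of 27 of the 33 members were in the table, without Aurkb, Ccna2, Ccne2, Kif20a, Mcm4 and Tpx2. A CHR was found in 12 of 15 mitotic promoters (80%, exact 95% interval 51.9% to 95.7%) and in 2 of 12 S-phase promoters (16.7%, 2.09% to 48.4%), against 19.4% of all 27025 promoters. An E2F site was found in 3 of 15 mitotic promoters (20%, 4.33% to 48.1%) and in 6 of 12 S-phase promoters (50%, 21.1% to 78.9%), against 8.21% of all promoters. CCAAT boxes, bound by NF-Y, stood in 14 of 15 mitotic and 8 of 12 S-phase promoters and in 37.9% of all promoters. In 150-base windows around the start, E2F sites stood in 1 of 15 mitotic and 4 of 12 S-phase promoters and a CHR in 12 of 15 and 1 of 12. Among the 5 genes called, promoters with only a CHR, with only an E2F site, with both and with neither occurred. The same held among the members not called: Cdk1, at a difference of 0.01, held an E2F site, a CHR and a CCAAT box. Only the forms listed above were searched, so other variants of these elements would have been missed.

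HET heads showed no called difference from WT heads in the cell cycle genes. None of the 33 members passed the test, while 0.00549% of tested loci (1 of 18217) did, and none had an unadjusted p under 0.05 (limma), against 354 of all tested loci. The median log2 difference was 0.01 over the S-phase members and -0.01 over the mitotic members. The largest was that of Ccne2, 0.32 (SE 0.20, limma-trend, adjusted p = 1.0). The HET libraries overlapped the WT libraries for every member, while 1.05% of tested loci had all HET libraries above and 1.43% all HET libraries below all WT libraries. Zcchc8 itself was not called in HET against WT, at -0.62 log2 (SE 0.18, limma-trend), although all 3 HET libraries lay below all WT libraries. The absence of calls therefore does not show that HET and WT heads were alike.

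KO against HET gave 3 members higher and 0 lower, against 17.9% of all tested loci called higher and 4.36% lower (22.3% in either direction), and 3.07% and 5.36% of the 7691 abundant loci. The 3 were Mki67, Cenpe and Cenpf, whose values are given above, all mitotic. The median log2 difference was 0.09 over the S-phase members and 0.12 over the mitotic members, and 0.02 over all tested loci. Rrm1 was the single member with all KO libraries (85.6 to 98.4 FPKM) above all HET libraries (79.3 to 84.5 FPKM), a separation that 17.7% of tested loci showed, with 5.19% the other way round. The count depended on single libraries, being 0 without HET4 and 4 without KO5. Both comparisons use the same KO libraries, so their calls are not independent of each other.

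The replication-dependent histone genes had another pattern. Because the libraries were made from polyadenylated RNA, the values are of histone RNA captured that way, and total histone message was not measured. Of 65 loci with such names, 53 were tested. At an adjusted p under 0.05, 40 of these (75.5%) were higher in KO than in WT, against 19.0% of all tested loci. A single histone locus, Hist1h2bc, was lower (-0.51, limma-trend, adjusted p = 1.2e-04). The median log2 difference of the histone loci was 1.35 (2.55-fold), against 0.10 over the 14 S-phase members. In 33 of 53 loci all KO libraries were above all WT libraries, against 15.3% of tested loci and 0 of the 14 S-phase members. A histone locus could pass the filter of 0.5 FPKM in 3 libraries through KO libraries alone, which can raise these shares and the median. The S-phase members, in contrast, all had a WT mean of at least 8.95 FPKM. Summed FPKM of the 53 histone loci was 706.2 to 1255 in KO, 256.6 to 307.4 in HET and 239.9 to 297.3 in WT libraries. A large part of this sum came from Hist3h2ba, described below. Only 40 of the 53 loci carried a single name, and at the others fragments cannot be assigned to 1 of the names. The S-phase members summed to 984.3 to 1179 FPKM in KO, 995.8 to 1081 FPKM in HET and 1004 to 1132 FPKM in WT, so that the 3 groups overlapped.

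Among histone loci with a single name, Hist3h2ba was the most abundant in WT, with 251.2 ± 35.5 FPKM in KO (SD, n = 6) and 100.3 ± 15.3 FPKM in WT (SD, n = 5). Its log2 difference was 1.32 (SE 0.11, limma-trend). Hist1h3c had 22.2 ± 6.87 FPKM in KO and 8.11 ± 1.17 FPKM in WT (SD, n = 6 and 5), a difference of 1.38 (SE 0.22). Hist1h2af, with 8.54 ± 3.54 FPKM in KO and 7.34 ± 2.01 FPKM in WT, was not called (0.13, limma-trend, adjusted p = 0.820). Histone genes have near-identical copies, so the value of a single locus is uncertain. Slbp, which encodes the protein that binds the histone stem-loop and was picked after its values were seen, had 79.2 ± 4.50 FPKM in KO and 74.7 ± 3.21 FPKM in WT (SD, n = 6 and 5, locus with Tmem129), and was not called (0.09, limma-trend, adjusted p = 0.211).

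Library by library the S-phase and histone values did not keep the same order. Relative to the WT mean, the median log2 level of the histone loci in KO1 to KO6 was 1.35, 0.98, 0.73, 1.62, 1.81 and 1.47, while that of the S-phase members was 0.17, 0.06, 0.09, 0.17, -0.12 and 0.06. KO5 thus had the highest histone median and the lowest S-phase median of the KO libraries, with 11 of 14 S-phase members below the WT mean. KO4 was high in both, with 13 of 14 S-phase members above the WT mean. For the mitotic members the medians in KO1 to KO6 were 0.17, 0.12, 0.14, 0.18, 0.00 and 0.01. In HET3, HET4 and HET5 the histone medians were -0.10, 0.05 and 0.01 and the S-phase medians -0.07, 0.05 and 0.06. In WT1 to WT5 the histone medians were 0.03, -0.15, 0.14, -0.06 and 0.07 and the S-phase medians -0.07, -0.01, -0.07, 0.01 and 0.13.

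**Figure D4:**
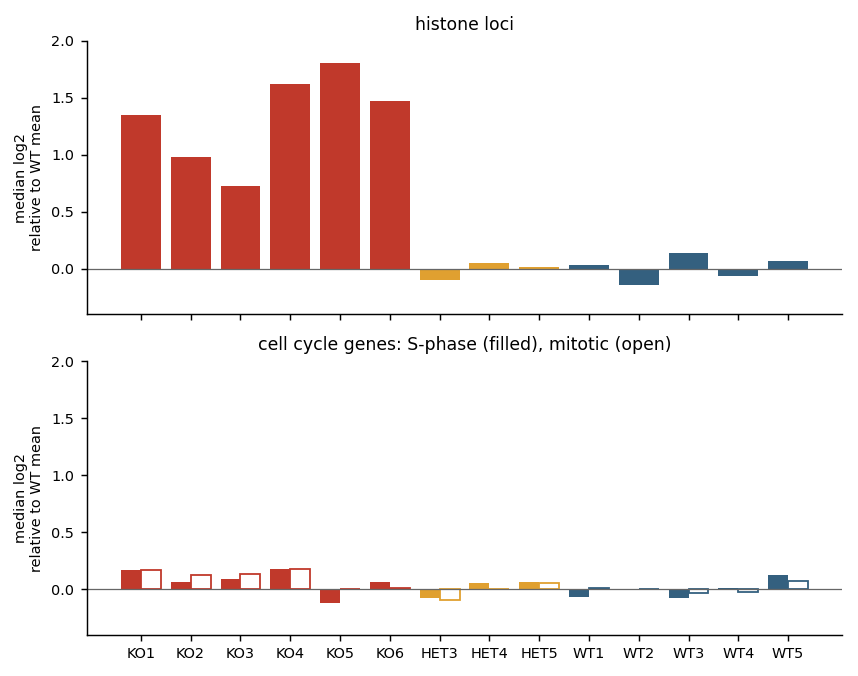
Median log2 level relative to the WT mean in each library, for the 53 histone loci (upper panel) and for the 14 S-phase (filled) and 19 mitotic (open) cell cycle genes (lower panel, same scale), with KO in red, HET in orange and WT in blue. The histone medians are 0.73 to 1.81 in KO libraries, and the S-phase medians are -0.12 to 0.17 in them, overlapping the WT range.

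The spread between libraries was wider in KO for these genes. The median coefficient of variation over the 33 members was 9.57% in KO, 5.57% in HET and 5.40% in WT, and that over the 7691 abundant loci was 9.36% in KO and 6.09% in WT. In HET3, 32 of 33 members were below the WT mean, and in WT5, 30 of 33 were above the mean of its own group. KO4 had 32 of 33 members above the WT mean and KO5 had 13. The median log2 level of all 33 members relative to the WT mean ranged from -0.04 to 0.18 in KO libraries, from -0.08 to 0.06 in HET libraries and from -0.05 to 0.09 in WT libraries.

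The further genes of replication and mitosis are set beside the 19.0% of all tested loci called higher and 5.61% called lower, and the 3.38% and 6.14% of the abundant loci. The other replication genes tested numbered 54, among them origin, polymerase, primase and replication factor C subunits. None was called in KO against WT in either direction (0 of 54, limma), and the median log2 difference was 0.06. An unadjusted p under 0.05 was found for 8 of the 54, against 6276 of 18217 tested loci. The 3 with the smallest p were Atad2 (0.16, adjusted p = 0.0526), Mcm8 (0.19, adjusted p = 0.0552) and the flap endonuclease Fen1 (0.14, adjusted p = 0.0637, limma-trend). Of 54 other mitotic genes, 6 were higher (11.1%) and 0 lower, with a median of 0.10. Cks2, a small subunit of cyclin-dependent kinases, had the largest difference of them (locus with Gm22806). It had 135.7 to 172.4 FPKM in KO, a mean of 108.1 FPKM in HET and 99.3 to 108.2 FPKM in WT, with a log2 difference between KO and WT of 0.57 (SE 0.06, limma-trend). The other 5 were Ube2c (0.18), which provides ubiquitin to the anaphase-promoting complex, Cdca8 (0.13), a partner of Aurora B, the condensin subunit Ncaph (0.13), and the kinetochore and spindle genes Knstrn (0.17) and Nuf2 (0.18).

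The G1 phase genes were called higher about as often as all tested loci, and more often than the abundant loci. Of 19 cyclins, kinases, inhibitors and pocket proteins tested, 4 were higher in KO than in WT (21.1%, against 19.0% of all tested loci and 3.38% of the abundant loci) and 2 were lower, so that 31.6% were called, against 24.6% of all tested loci. Their median log2 difference was 0.02. Cdk4, the kinase of D-type cyclins, had 878.3 ± 43.7 FPKM in KO and 774.2 ± 40.6 FPKM in WT (SD, n = 6 and 5; log2 difference 0.18, limma-trend, adjusted p = 0.00849). Its partner Ccnd1 had 114.2 ± 8.22 FPKM in KO and 99.5 ± 3.08 FPKM in WT (0.20, adjusted p = 0.00920, limma-trend). E2f5 (0.24) and Cdk6 (0.28) were the other 2 higher genes. Cdkn1a, the p21 inhibitor of cyclin-dependent kinases and a target of p53, fell to 9.87 ± 0.70 FPKM in KO, against 11.5 ± 0.77 FPKM in WT (-0.22, adjusted p = 0.0137, limma-trend), and the anti-proliferative gene Btg1 fell to 44.0 ± 3.98 FPKM in KO, against 49.7 ± 2.06 FPKM in WT (-0.18, adjusted p = 0.0304). Among all tested loci 24.6% were called, and among the abundant loci 3.38% were called higher and 6.14% lower. Of 12 p53 targets, 0 were higher and 1 was lower, Cdkn1a (8.33% called). Zmat3 (0.13, adjusted p = 0.0723) and Eda2r (0.39, adjusted p = 0.0984, limma-trend) followed by p.

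A whole head mixes cell types, and their markers are given here beside the 24.6% of all tested loci called in KO against WT (19.0% higher, 5.61% lower) and the 3.38% higher and 6.14% lower of the abundant loci. Of 10 neural progenitor markers, 2 were called (20%), Slc1a3 (-0.30) and the locus of Sox2 (0.23), and Hes1 was next by p (-0.19, adjusted p = 0.117, limma-trend). Their sum was 1475 to 1758 FPKM in KO and 1590 to 1735 FPKM in WT. Of 7 markers of intermediate progenitors, Neurog1 was called (0.44), while Btg2 and Insm1 were at 0.11 and 0.16 and were not, with sums of 125.7 to 178.2 FPKM in KO and 120.0 to 165.9 FPKM in WT. Of 10 markers of postmitotic neurons, Gap43 was called (-0.21), while Stmn2 (-0.16) and Syt1 (-0.21) were not, with sums of 712.0 to 861.9 FPKM in KO and 810.9 to 924.7 FPKM in WT. For these 3 lists the shares called were 20%, 14.3% and 10%. They were below the 24.6% of all tested loci, but above both the 3.38% called higher and the 6.14% called lower of the abundant loci. With 1 or 2 calls in each list, these shares are rough.

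Called markers of 4 tissues outside the brain were lower in KO. For mesenchyme these were 4 of 8 (50%), the collagens Col1a2 (-0.39), Col3a1 (-0.22, locus with Gm47302) and Col1a1 (-0.36) and the proteoglycan Dcn (-0.72), with sums of 718.4 to 874.0 FPKM in KO and 876.7 to 1023 FPKM in WT. For muscle, 1 of 5 was lower (20%), Actn2 (-1.14), while Actc1 (-1.15) and Myh3 (-1.05) did not pass, with sums of 17.6 to 109.8 FPKM in KO and 80.5 to 148.1 FPKM in WT. For cartilage, 3 of 6 were lower (50%), Matn4 (-1.01), Col9a3 (-0.93) and Matn1 (-1.97, locus with RP23-218C2.2), with sums of 133.7 to 240.0 FPKM in KO and 191.2 to 267.0 FPKM in WT. For epithelium, 3 of 6 were lower (50%), the keratins Krt5 (-0.76) and Krt14 (-0.68) and the transcription factor Trp63 (-0.35), with sums of 68.7 to 84.0 FPKM in KO and 85.9 to 119.1 FPKM in WT. No marker of endothelium or macrophages was called, at 4 markers each. An unadjusted p under 0.05 was found for 0 of 4 in endothelium and 1 of 4 in macrophages, against 6276 of 18217 tested loci (limma). The smallest p among them were those of Kdr (0.11), Cdh5 (-0.05) and Pecam1 (-0.02) for endothelium, and of Adgre1 (-0.26), Csf1r (-0.15) and the locus of Aif1 with Lst1 (0.06) for macrophages. The part that these markers' cells have in the differences of the cell cycle genes was not tested.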

How the data were processed

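Polyadenylated RNA of 14 libraries was profiled, and the authors deposited an FPKM value per locus and library, produced with Cuffdiff according to the file headers. Per the submitters' processing notes, TopHat2 2.1.0 and FastQC 0.10.0 were used beside Cuffdiff, bcl2fastq and Partek, on the build mm10; their roles, the strand setting, the gene models and any filters are not stated there. A log2 FPKM matrix, quantile normalized by the authors before deposit as its equal column quartiles show, served as an alternative. Relative depth came from the lowest FPKM steps under 0.3 FPKM, in log2 bins of 0.02.

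FPKM values were analysed as log2(FPKM + 0.1), which understates changes of low loci. Loci with at least 0.5 FPKM in at least 3 libraries were tested with limma-trend (limma 3.58.1, R 4.3.3, robust empirical Bayes). The model held 1 mean for each genotype and took all 14 libraries together. Benjamini-Hochberg adjustment ran over the 18217 loci, at a threshold of 0.05. The fit was tested on simulated data. Tables and figures used Python 3.11.15, pandas 2.3.3, numpy 2.4.6, scipy 1.17.1 and matplotlib 3.10.9. Coordinates are those of the deposited loci, counted from 1. Transcript lengths are from GENCODE M21.

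All 33 members are named. Values are given for every library for members called in any comparison, and, with KO libraries in part as the lowest, median and highest or as a range, for the most abundant member of the other role groups. Of the further lists, without 1 cell type list that is not reported here, the 3 loci with the smallest p, of the histone loci the 3 single-name loci with the highest WT mean, and any further called gene of these lists are named. The members and lists were chosen with earlier results of these data known. Residuals of libraries with the same number correlated between -0.11 and 0.10, so the numbers were not taken as pairs.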

Additional observations from a re-analysis of the deposited data

Results flagged for a closer look

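In 4 of 72 groups of libraries screened, 1 library stood apart from the rest of its group by Dixon's test, which chance does in about 1 in 20 groups. Mcm7 was at 99.6 FPKM in KO5, the lowest of the KO libraries, with the other 5 between 119.0 and 129.3 FPKM. E2f1 was at 15.1 FPKM in KO3, with the other KO libraries between 22.8 and 24.5 FPKM. Aurkb was at 39.5 FPKM in KO3, with the others between 44.0 and 45.9 FPKM. Kif20a was at 40.7 FPKM in WT5, with the other WT libraries between 37.0 and 38.1 FPKM.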

How the results depend on the processing

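The alternatives were 2 pseudocounts (0.5 and 1), no filter, a stricter filter (1 FPKM in 5 libraries), 3 scalings (common median, quantiles, the authors' matrix), a replicate block, a fit restricted to the groups compared, weighting of libraries, a sex term, and each library omitted. Sex was inferred from each library's own FPKM of Xist and of the Y-linked genes Ddx3y, Eif2s3y, Kdm5d and Uty. The number of members higher in KO than in WT, 5, became 0 with no filter, 2 with the stricter filter, 0 with a common median, 26 in the authors' matrix, 3 with only the compared groups and 1 with sex as a covariate, and 0 to 8 with 1 library left out (8 without KO5, 0 without WT3 and 0 without KO2). Members lower, 0, became 1 after quantile normalization and 1 with sex as a covariate, in both cases Tyms. Members called in KO against HET, 3, became 1 with no filter, 1 with a common median, 16 in the authors' matrix, 1 with only the compared groups, 7 with library weights and 0 to 4 with 1 library left out (0 without HET4). With the replicate block, 4 members were higher in KO than in WT, 0 lower, and 4 called in KO against HET. The median log2 difference was 0.20 for S-phase and 0.22 for mitotic members in the authors' matrix, where the median over the loci tested was 0.20. For histone loci it was 1.05 and 0.87 with pseudocounts of 0.5 and 1, 1.01 after quantile normalization, 1.56 in the authors' matrix, 1.52 with library weights and 1.28 to 1.51 with 1 library left out. In 150-base promoter windows an E2F site stood in 1 of 15 mitotic (6.67%), 4 of 12 S-phase (33.3%) and 4.77% of all promoters, a CHR in 12 of 15 (80%), 1 of 12 (8.33%) and 8.68%, and a CCAAT box in 12 of 15 (80%), 7 of 12 (58.3%) and 24.0%. HET against WT gave 0 member calls under every alternative. The causes were not tested, and depth limits cannot be set without counts.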
